A study of Mus musculus with 6 samples.

Results

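The promoter peaks shared by all 3 libraries were studied, that is, the stretches of open chromatin at gene starts that were called in every library of a mouse model of Foxr2-driven brain lesions. They were chosen by measured values, since each had to be called as a peak from the ATAC-seq reads of each library. A peak of Foxr2 p53LOF replicate 1 on chr1 to chr19 was a member when it overlapped by 1 bp or more a peak of Foxr2 alone replicate 1 and a peak of Foxr2 alone replicate 2, and lay within 1 kb of the range of starts that the gene table gives for a gene. This gave 19746 members out of the 347237 peaks of the 3 libraries, or 17.8% of the 110742 peaks of Foxr2 p53LOF on chr1 to chr19.

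All libraries were 10x Multiome libraries, in which RNA and ATAC-seq are read from the same nucleus, of brain tissue described by the labels as brain tumor from C57BL/6J mice. In all groups, plasmids were electroporated in utero into the ganglionic eminence, the ventral forebrain zone that produces interneurons, and carried a piggyBac transposon with V5-tagged Foxr2, a forkhead gene, under the ubiquitous CAG promoter together with a vector for Akaluc and GFP. Foxr2 p53LOF also received Cas9 with a guide against Trp53, the p53 gene, whereas Foxr2 alone did not, and its lesions are described by the study as nonproliferative. The age of the animals was not given in the sources used here, untransfected host cells were part of the tissue, and there was 1 library of Foxr2 p53LOF and 2 of Foxr2 alone, of which replicate 2 contributed its peak list and its counts were not analysed here.

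With 1 library with counts per genotype there was no replicate, so no test was made, and intervals cover counting error only. After filters, 8454 Foxr2 p53LOF and 8321 Foxr2 alone nuclei were kept, with 38871988 and 47151351 fragments in peaks. Nuclei were grouped by marker genes into neuron-like, oligodendrocyte-lineage-like, astrocyte-like and immune-like classes, with 2269, 2544, 1306 and 1596 nuclei in Foxr2 p53LOF and 4242, 3203, 412 and 432 in Foxr2 alone. The classes held different clusters in the libraries. In Foxr2 p53LOF, 1179 astrocyte-like nuclei and the 910 nuclei with markers of committed oligodendrocyte precursors had Hmga2, a chromatin protein of fetal and tumor cells, as their leading gene, followed by interferon-inducible genes such as Iigp1 and Gbp4, and its 1535 nuclei with oligodendrocyte markers were led by Iigp1. The Foxr2 alone nuclei of these classes were mostly in an oligodendrocyte cluster of 3028 nuclei and an astrocyte cluster of 411 nuclei. Of the cell barcodes, 140 occurred in both libraries with counts.

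A promoter is the DNA around a transcript start where RNA polymerase is loaded. Most mammalian promoters lie in CpG islands, GC-rich stretches that keep the CpG dinucleotide lost elsewhere in the genome, and these are open in nearly all cell types and serve housekeeping genes. Promoters poor in CpG are more often open in 1 cell type. ATAC-seq reads such open stretches because the Tn5 transposase cuts DNA that is not packed by nucleosomes.

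The contrast between these kinds of promoter can be read in the bases just upstream of the starts of members. Shown are 200 bases, 5′ to 3′ on the strand of the gene and up to the base before the outermost start, in mm10 as read from the GRCm38 assembly. They lie inside the member and outside annotated exons. Capitals mark CpG dinucleotides. The first sequences are those of Camta1 (chr4:151861877-151862076, minus strand), a transcription activator gene, and Gsk3b (chr16:38088801-38089000, plus strand), a kinase gene, which belonged to the members with the highest level across all classes. The next were among the members that stood out most in 1 class: Cntnap2 (chr6:45059861-45060060, plus strand), a neuronal adhesion gene, in neuron-like nuclei, Ermn (chr2:58052865-58053064, minus strand), which encodes the oligodendrocyte cytoskeletal protein ermin, in oligodendrocyte-lineage-like nuclei, Egfr (chr11:16752003-16752202, plus strand), the epidermal growth factor receptor gene, in astrocyte-like nuclei and Tmem273 (chr14:32785763-32785962, plus strand), a transmembrane protein gene, in immune-like nuclei.
Camta1: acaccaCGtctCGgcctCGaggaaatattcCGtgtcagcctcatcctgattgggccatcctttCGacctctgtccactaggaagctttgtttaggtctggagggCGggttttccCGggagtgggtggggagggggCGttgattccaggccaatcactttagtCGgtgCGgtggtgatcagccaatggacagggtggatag
Gsk3b: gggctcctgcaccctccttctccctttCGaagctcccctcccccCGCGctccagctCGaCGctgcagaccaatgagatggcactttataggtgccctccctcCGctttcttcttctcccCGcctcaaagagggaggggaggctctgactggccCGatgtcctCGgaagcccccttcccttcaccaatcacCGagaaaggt
Cntnap2: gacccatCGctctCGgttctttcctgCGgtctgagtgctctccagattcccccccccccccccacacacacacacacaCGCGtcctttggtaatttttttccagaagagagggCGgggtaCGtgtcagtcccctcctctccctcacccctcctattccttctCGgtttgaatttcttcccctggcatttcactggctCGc
Ermn: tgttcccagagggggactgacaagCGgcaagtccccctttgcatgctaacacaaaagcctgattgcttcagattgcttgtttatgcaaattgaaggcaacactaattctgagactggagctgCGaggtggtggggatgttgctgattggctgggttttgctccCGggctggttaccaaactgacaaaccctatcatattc
Egfr: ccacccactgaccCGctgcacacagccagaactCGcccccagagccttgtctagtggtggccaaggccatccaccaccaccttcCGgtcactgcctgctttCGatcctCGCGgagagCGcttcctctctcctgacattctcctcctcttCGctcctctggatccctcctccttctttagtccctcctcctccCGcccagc
Tmem273: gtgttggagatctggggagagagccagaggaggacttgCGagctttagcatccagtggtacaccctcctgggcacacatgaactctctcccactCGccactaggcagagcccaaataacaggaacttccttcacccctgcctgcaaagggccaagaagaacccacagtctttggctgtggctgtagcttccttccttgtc
Camta1 and Gsk3b had 10 CpG dinucleotides each in these 200 bases, Cntnap2 and Egfr had 9 each, Ermn had 3 and Tmem273 had 2. The neuron-like and astrocyte-like examples were thus nearly as rich in CpG as the broad ones.

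Members had a median width of 881 bp, against 884 bp in shared distal peaks, and ranged from 309 to 1195 bp. Of the 28871 promoter peaks of Foxr2 p53LOF, 68.4% were shared by all libraries, against 44.1% of the 81871 peaks farther from gene starts, here called distal. Of the 9125 promoter peaks that were not shared, 2652 were overlapped in Foxr2 alone replicate 1 only, 2274 in replicate 2 only and 4199 in neither. The level is part of what peak calling reads, so it is given as a description. Members had a median of 18.5 fragments per 1000000 fragments in peaks on chr1 to chr19 (FPM), unshared promoter peaks 3.55 FPM and shared distal peaks 5.74 FPM.

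The name promoter held for most members but not for all. The gene table gives for each gene a range from its first to its last transcript start, and in long genes with many starts that range takes in much of the gene. Of the members, 17730 (89.8%) overlapped a range, 15442 lay within 1 kb of an end of one, and 4304 (21.8%) lay only inside a wide range. The extreme was Fgfr2, a fibroblast growth factor receptor gene, with 116 members. In the GENCODE M21 annotation, 16128 members (81.7%) had a transcript start within 1 kb, as did 702 of the 4304 inside wide ranges. The 203 members in the last 100 bp inside the 1 kb limit had a median of 8.85 FPM, and the 166 shared peaks in the first 100 bp outside it had 9.97 FPM.

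Where the start was well defined, most members lay close to it, although the rule itself had limited the distance to 1 kb. For the 7666 members linked to 1 gene with a start range of at most 100 bp, the midpoint was at a median of 19 bp downstream of the start, with quartiles at -71 and 115 bp, and 84.3% were within 500 bp. A member was linked to 1 gene in 16797 cases, to 2 in 2875 and to more in 74. Of the members with 2 genes, 1847 (64.2%) stood between genes that run away from each other, the arrangement called a bidirectional promoter.

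In all, 16344 of the 30364 genes on chr1 to chr19 (53.8%) had a member. Protein-coding genes had one in 13425 of 20519 cases (65.4%) and long noncoding RNA genes in 2902 of 9114 (31.8%). The gene groups differed widely. Against that share of 53.8% of all genes, all 25 cell cycle genes, all 31 proteasome subunits and 75 of 76 ribosomal protein genes had a member. Of the 1087 olfactory receptor genes, 10 did (0.920%), and of the 39 Hox genes, the body-axis regulators that are off in the forebrain, 10 did. The set of 21 p53 targets had 20, the 22 immediate early genes had 21 and the 21 ETS factors had 18, without Ehf, Fev and Spdef. The 13 telencephalic factors had 10. Of the markers of cell types that had no class of their own, 3 of 7 endothelial, 3 of 6 mural, 1 of 6 fibroblast and 5 of 6 ependymal genes had a member.

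Members held close to 50% of all fragments in peaks, but not the same share in each class (plot of the share by class). In Foxr2 p53LOF the share was 52.9% in neuron-like, 50.1% in oligodendrocyte-lineage-like, 48.9% in astrocyte-like and 55.0% in immune-like nuclei, and 51.7% in all nuclei (exact 95% interval 51.65 to 51.68%). In Foxr2 alone it was 41.6%, 58.4%, 56.1% and 62.6% in the same classes, and 47.2% in all nuclei (47.19 to 47.21%). Immune-like nuclei were thus highest in both libraries, while neuron-like nuclei were second highest in Foxr2 p53LOF and lowest in Foxr2 alone. The denominators were the peaks of each library, and the peak list of Foxr2 alone, in which 51.0% of the nuclei were neuron-like, was the longer one (135201 against 112924 peaks). What part this played was not tested.

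**Figure D1:**
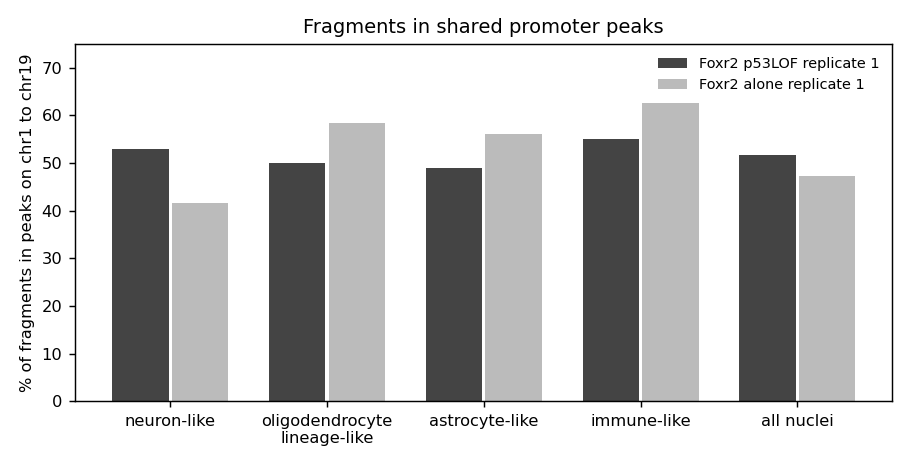
Share of fragments in peaks on chr1 to chr19 that fell in shared promoter peaks, in percent, by marker-named class and in all nuclei of the libraries with counts (dark bars Foxr2 p53LOF replicate 1, light bars Foxr2 alone replicate 1). There is 1 library per bar and no replicate error, and the neuron-like bars (52.9% and 41.6%) stand in the opposite order to those of the other classes.

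The fragments were spread over many members. The 1000 members with most fragments held 17.6% of all member fragments in Foxr2 p53LOF and the top 8 held 1.10%. Over all members, the median level was 21.4, 18.4, 19.4 and 15.8 FPM in the 4 classes of Foxr2 p53LOF, neuron-like first and immune-like last. Shared distal peaks had medians of 5.37, 5.46, 4.57 and 2.18 FPM. Such medians do not show how far the classes differed within a member. In 7907 members (40.0% of all), every class had 30 fragments or more and the highest class was within 2-fold of the lowest. The same was so of 6.02% of shared distal peaks. The median number of fragments over the 4 classes was 647 in members and 201 in shared distal peaks that reached 30 in a class, and the part of depth in this was not tested.

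The members with the highest level in their lowest class, apart from predicted genes, were at AY036118, Chl1, Gt(ROSA)26Sor with Setd5, Camta1, Gsk3b, Cic, Sp1 and Hspa8. The noncoding locus AY036118 stood far above the rest, with 817, 918, 559 and 1903 FPM in these classes of Foxr2 p53LOF and 758, 691, 1112 and 1751 FPM in Foxr2 alone. For its comparison with Foxr2 binding sites, the study removed ATAC peaks in blacklisted regions of the genome. No such filter was applied here, and the part of read mapping in the level at AY036118 was not tested. The member shared by Setd5, a chromatin regulator gene, and Gt(ROSA)26Sor, the safe-harbor locus used for transgenes because it is active in nearly every cell, had 134, 148, 136 and 214 FPM in Foxr2 p53LOF. In Foxr2 alone it had 74.0, 154, 150 and 162 FPM.

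In Foxr2 p53LOF the other broad members lay within 2-fold between classes. Hspa8, the gene of the constitutive heat shock chaperone, had 115, 130, 114 and 192 FPM in Foxr2 p53LOF and 109, 193, 201 and 201 FPM in Foxr2 alone. Sp1, whose product binds GC boxes, had 121, 137, 121 and 179 FPM and 116, 216, 208 and 228 FPM. Cic, a transcriptional repressor gene, had 129, 134, 123 and 198 FPM and 90.7, 170, 156 and 178 FPM. In these 3 genes, immune-like nuclei were highest in Foxr2 p53LOF and neuron-like nuclei lowest in Foxr2 alone, the order already seen in the total shares. Gsk3b had 127, 137, 124 and 155 FPM in Foxr2 p53LOF and Camta1 127, 144, 137 and 197 FPM. The Chl1 member, inside a wide range of this adhesion gene, had 208, 197, 224 and 265 FPM.

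A member was called led by a class when its level there was at least 2-fold above every other class and rested on 30 fragments or more, a minimum that 19638 of the 19746 members reached in some class. In Foxr2 p53LOF, 4373 members (22.1%) were led by 1 class, against 40.0% of all peaks on chr1 to chr19 and 39.7% of shared distal peaks. Neuron-like nuclei led 2004 members, immune-like nuclei 1210, oligodendrocyte-lineage-like nuclei 754 and astrocyte-like nuclei 405. In members near an end of a start range the share was 16.7%, and in those only inside a wide range it was 41.8%, close to the share of distal peaks. The number of fragments went with the call. Among peaks with 100 to 200 fragments over the 4 classes, 46.2% of members and 44.2% of shared distal peaks were led by 1 class, and among those with 800 to 1600 fragments 3.31% and 12.8% were. At low numbers of fragments the shares were close, and at high numbers members were led by a class less often.

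The class calls made in Foxr2 p53LOF were then read in the ATAC counts of Foxr2 alone. The libraries were not independent here, since the classes came from clustering both together on RNA and each member had to be called as a peak in Foxr2 alone, so the recurrence is a description. Of the 4373 members, 3810 (87.1%) had their highest level in the same class there, 2825 (64.6%) were led by that class there too and 139 were led by another class. Shared distal peaks were close to this, with 83.8% and 60.9%. Over all peaks on chr1 to chr19, 33.6% of those led by a class were led by the same class in Foxr2 alone. For unshared promoter peaks, for which the rule does not ask for a peak there, it was 15.9%. Of the 110742 peaks only 70304 overlapped a peak of Foxr2 alone replicate 1. The others could not recur, and the 33.6% and 15.9% count them as not recurring, so these shares cannot be compared with that of members. For the same reason no share with the same highest class is given for these sets. In Foxr2 alone, 5400 members were led by some class, and of all tested peaks of Foxr2 p53LOF that overlapped one of its peaks 41.6% were. By class, the highest level was in the same class for 85.3% of the neuron-led, 90.6% of the oligodendrocyte-lineage-led, 71.4% of the astrocyte-led and 93.3% of the immune-led members. Over all members, these classes were highest in Foxr2 alone in 22.5%, 24.0%, 19.6% and 33.8%. The astrocyte-led members recurred least often, with a median of 27.0 fragments in the astrocyte-like nuclei of Foxr2 alone.

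Among the members most strongly led by neuron-like nuclei were those of Cdh7, a cadherin gene, Cntnap2, Rbfox1, a neuronal splicing regulator gene whose member lay only inside a wide range, Gpr139, an orphan receptor gene, and the pair of Cyp4x1, a cytochrome P450 gene, and its antisense RNA. The Cntnap2 member (chr6:45059514-45060394) had 40.1 FPM in neuron-like nuclei of Foxr2 p53LOF and 0.617, 0.672 and 0.727 FPM in oligodendrocyte-lineage-like, astrocyte-like and immune-like nuclei. This was 55.1-fold above the next class (exact 95% interval 21.4 to 203). In Foxr2 alone it had 32.8, 0.934, 3.54 and 1.23 FPM in the 4 classes, 9.28-fold above the next (4.25 to 25.3). Its RNA, in UMIs per 1000000 UMIs of the class (UPM), was 4038, 51.9, 39.7 and 94.8 in Foxr2 p53LOF and 2965, 36.3, 258 and 48.3 in Foxr2 alone. Promoter and RNA thus had neuron-like nuclei far on top in both libraries. The Cdh7 member had 314 fragments in neuron-like nuclei and 2, 1 and 2 in the others, and 775, 12, 2 and 0 in Foxr2 alone. Gpr139 had 272 fragments in neuron-like nuclei and 6, 3 and 2 in the others, with 17.5 UPM of RNA in neuron-like nuclei and under 1 UPM elsewhere.

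The oligodendrocyte-lineage-led members included those of Ermn, Tdo2, the gene of tryptophan dioxygenase, Pex5l, Fgfr2 and Enox1. The Ermn member (chr2:58052532-58053433) had 0.959, 24.4, 0.806 and 1.64 FPM in the 4 classes of Foxr2 p53LOF, 14.9-fold above the next class (7.75 to 33.0), and 0.961, 34.9, 2.36 and 1.23 FPM in Foxr2 alone, 14.8-fold above (5.73 to 54.5). Its RNA was 69.6 UPM in this class in Foxr2 p53LOF and 256 UPM in Foxr2 alone, against 7.36 and 18.8 UPM in the next class. Tdo2 differed from Ermn in its RNA. Its promoter had 14.5 FPM in oligodendrocyte-lineage-like nuclei and 0.672 FPM or less elsewhere in Foxr2 p53LOF, and its RNA was 0.890 UPM there. In Foxr2 alone its promoter was again highest in these nuclei, at 12 FPM, but its RNA was highest in astrocyte-like nuclei, at 13.0 UPM against 5.0 UPM. The Pex5l, Fgfr2 and Enox1 members lay only inside wide ranges. Enox1 had 28.8 FPM here against 2.02 FPM in the next class, while its RNA was 296 UPM here and 336 UPM in neuron-like nuclei.

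Astrocyte-led members were those of Rfx4, a transcription factor gene whose member lay only inside a wide range, Egfr and its antisense gene Egfros, Sox1, a neural progenitor factor gene, and Mlc1, a membrane protein gene of astrocyte endfeet. The Egfr member (chr11:16751929-16752641) had 2.01, 1.59, 22.7 and 0.727 FPM in Foxr2 p53LOF, 11.3-fold above the next class (7.14 to 18.7). In Foxr2 alone it had 1.25, 0.255, 22.4 and 1.23 FPM, 17.9-fold above neuron-like nuclei (11.2 to 28.8), and the immune-like level there rested on 2 fragments. The level in astrocyte-like nuclei was nearly the same in both libraries, and RNA was 708 and 336 UPM. Mlc1 had 43.5 FPM in astrocyte-like nuclei of Foxr2 p53LOF and 74.9 FPM in those of Foxr2 alone. Its RNA there was 86.0 and 218 UPM. Sox1 had 85.6 and 116 FPM, and its RNA was 9.62 and 16.6 UPM. For both genes promoter and RNA were thus higher in Foxr2 alone. The Egfros member was the weakest of the 5 in Foxr2 alone, with 8.26 FPM in astrocyte-like and 2.47 FPM in neuron-like nuclei.

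Immune-led members were those of Tmem273, Inpp5d, which encodes the phosphatase SHIP1 and whose member lay only inside a wide range, Dock2, a guanine exchange factor gene of blood cells, Wdfy4 and Cd33, a sialic acid receptor gene of myeloid cells. The Cd33 member (chr7:43544160-43545098) had 1.44, 0.881, 0.538 and 52.7 FPM in Foxr2 p53LOF, 36.6-fold above the next class (21.9 to 66.3). In Foxr2 alone it had 0.481, 0.0850, 0 and 76.6 FPM, 159-fold above neuron-like nuclei (93.0 to 293). In astrocyte-like nuclei of Foxr2 alone, 3 fragments stood for 1.77 FPM, above that neuron-like level. The fold over astrocyte-like nuclei could thus be smaller. Its RNA in immune-like nuclei was 193 and 464 UPM, and at most 4.52 UPM in any other class of either library. Inpp5d had 57.3 and 71.1 FPM in immune-like nuclei of the libraries, Wdfy4 73.3 and 102 FPM and Dock2 32.7 and 38 FPM. These 5 members were highest in immune-like nuclei of both libraries, as the plot of class-led members shows.

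**Figure D2:**
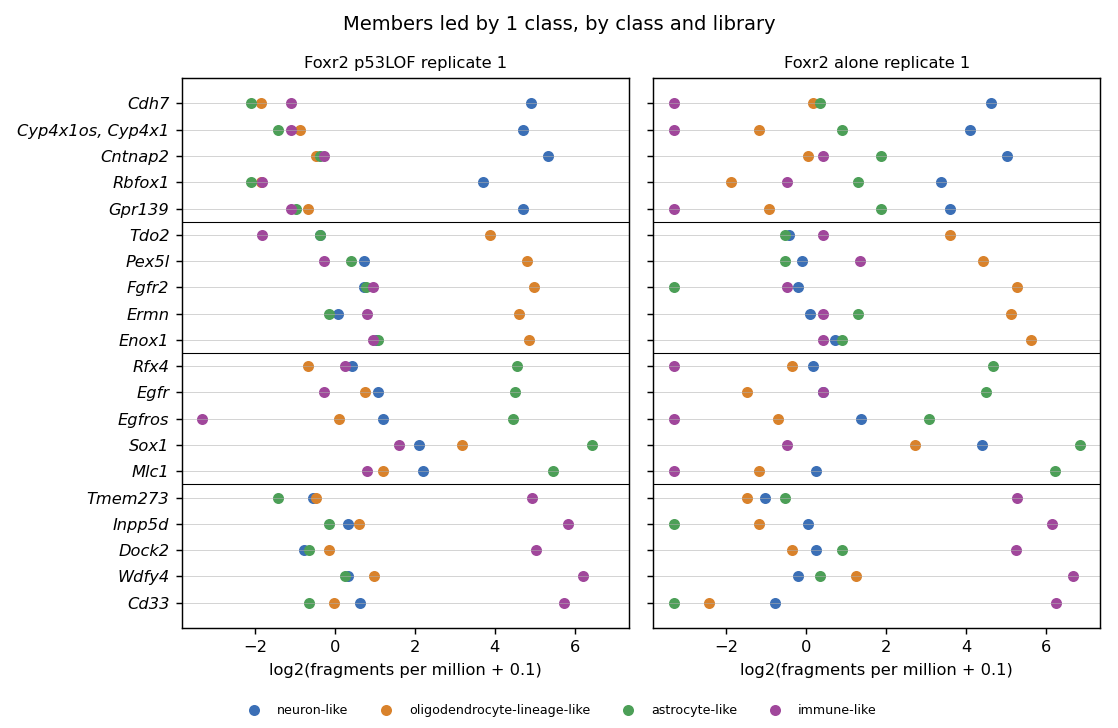
Fragments per 1000000 in peaks on chr1 to chr19, plus 0.1 and on a log2 scale, for the 5 members most strongly led by each class in Foxr2 p53LOF replicate 1 (left) and the same members in Foxr2 alone replicate 1 (right), 1 dot per class and 1 library per panel. The members were chosen for the pattern in the left panel, and each dot cloud keeps its leading class in the right panel.

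The marker genes of the classes behaved differently from class to class. Over all genes with a member, promoter fragments were led by 1 class in 14.2% in Foxr2 p53LOF and 18.9% in Foxr2 alone. All 8 immune markers with a member were led by immune-like nuclei in both libraries, for example C1qb, a complement gene, at 76.0 and 107 FPM, and Ly86 at 44.9 and 53.9 FPM. Of the 7 neuron markers with a member, 6 were led by neuron-like nuclei in each library, all but Celf4 in Foxr2 p53LOF and all but Grin2b in Foxr2 alone. Of the 8 oligodendrocyte markers, 7 were led by their class in Foxr2 p53LOF and 8 in Foxr2 alone, and of the 6 astrocyte markers with a member 4 and 6 were. The 3 markers of committed oligodendrocyte precursors with a member included 2 led by the oligodendrocyte-lineage-like class in both libraries. The 6 markers of oligodendrocyte precursors with a member were led by the oligodendrocyte-lineage-like class in neither library and by no class in Foxr2 p53LOF. Of the 2544 and 3203 nuclei of that class in Foxr2 p53LOF and Foxr2 alone, 96 and 170 were in the cluster named for these markers. The part of this in the calls was not tested. Summed over its 2 members, Pdgfra, a growth factor receptor gene of these precursors, had 9.69, 27.2, 31.3 and 4.18 FPM in the 4 classes of Foxr2 p53LOF. Sox6, a transcription factor gene, had 5.28, 27.1, 32.9 and 2.36 FPM over 2 members. For both, oligodendrocyte-lineage-like and astrocyte-like nuclei stood close together in promoter and RNA, with RNA of 145 and 157 UPM for Pdgfra and 1156 and 991 UPM for Sox6. In Foxr2 alone RNA was 97.4 and 5.78 UPM for Pdgfra and 80.6 and 437 UPM for Sox6, so there it differed between these classes. Among the markers of the classes, Aqp4, Gja1, Ptprc, Itgam, Stmn2, Cspg4, Bcas1, Bmp4 and Neu4 had no member, although RNA of Ptprc, for example, was 1530 UPM in immune-like nuclei of Foxr2 p53LOF. These markers had named the classes from RNA, without the ATAC counts.

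None of the 75 ribosomal protein, 31 proteasome and 25 cell cycle genes with a member was led by a class in Foxr2 p53LOF, beside that share of 14.2% of all 16344 genes. Ribosomal protein genes had a median of 48.7, 46.2, 44.2 and 59.8 FPM in the 4 classes. Among the ETS factors, which bind GGAA cores, the members of Spi1 and Fli1, regulators of blood cell genes, were led by immune-like nuclei, at 49.5 FPM against at most 2.47 FPM and at 20.7 FPM against at most 2.20 FPM. The ETS factor genes Etv1 and Etv4 were highest in astrocyte-like nuclei of Foxr2 p53LOF, at 39.1 and 49.3 FPM, but led by none. Etv5 was highest in immune-like nuclei, at 112 FPM, whereas its RNA was highest in astrocyte-like nuclei (189 against 116 UPM). Of the 18 ETS factors with a member these 2 were led, close to the share of all genes. Of 21 immediate early genes, 5 were led: Ier5, Atf3, Klf2 and Junb by immune-like nuclei and Npas4, an activity-dependent neuronal factor gene, by neuron-like nuclei at 33.0 FPM against at most 3.36 FPM.

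Sequence differed along the same line, and was not used by the rule. In the 300 bases around the midpoint, members had a median GC content of 62.0% and a median ratio of observed to expected CpG of 0.71, while shared distal peaks had 50.3% and 0.25. A ratio of 0.6 or more, the usual mark of a CpG island, was found in 58.7% of members, 10.4% of unshared promoter peaks and 7.02% of shared distal peaks. The share was 72.8% in members near an end of a start range and 8.09% in those only inside a wide one. Members led by no class had it in 67.7% of cases, those led by neuron-like nuclei in 39.0%, astrocyte-like in 25.2%, immune-like in 20.6% and oligodendrocyte-lineage-like in 5.57%. Of the 754 oligodendrocyte-lineage-led members, 460 lay only inside wide ranges. Among members near an end the shares were 78.9% for those led by no class and 55.4%, 42.0%, 30.9% and 11.9% for those led by neuron-like, astrocyte-like, immune-like and oligodendrocyte-lineage-like nuclei, so they were higher but in the same order.

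**Figure D3:**
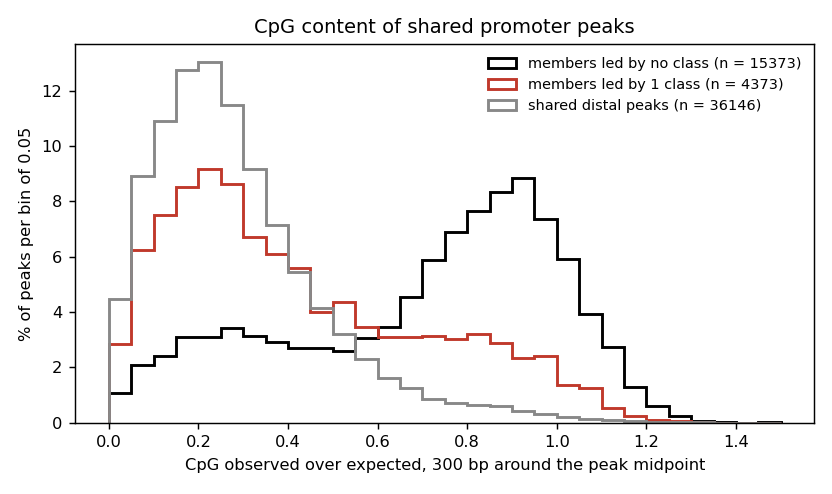
Ratio of observed to expected CpG in the 300 bp around the peak midpoint (x axis, values above 1.5 set to 1.5) and percent of peaks per bin of 0.05 (y axis), for the 15373 members led by no class, the 4373 led by 1 class in Foxr2 p53LOF and the 36146 shared distal peaks. Members led by no class (median 0.78) lie to the right of shared distal peaks (median 0.25), and members led by 1 class spread between them.

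Short motifs of known promoter factors were counted in the same 300 bases on both strands. The SP and KLF motif GGGCGG was in 52.7% of members and in 17.6% of all peaks. The ETS motif CCGGAAG was in 12.1% of members and 4.06% of all peaks, the NRF1 motif GCGCATGC in 3.72% and 1.23%, and the YY1 motif AAGATGGCG in 2.39% and 0.635%. The CREB motif TGACGTCA was in 2.64% and 0.954% and the E-box CACGTG in 8.80% and 6.28%. Each of these motifs contains a CpG, and members were CpG-rich. The other motifs contain none, and no motif contains another. The NFY motif CCAAT was in 32.1% of members and 31.6% of all peaks. The AP-1 motif TGACTCA was in 5.96% of members but in 16.7% of all peaks and 24.0% of unshared distal ones, the forkhead motif GTAAACA in 2.47% and 3.99%, and TATAAAA in 2.02% and 3.88%.

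Within members, ETS letters went with breadth. CCGGAAG was in 14.6% of members led by no class and in 3.29%, 1.19%, 2.72% and 4.96% of those led by neuron-like, oligodendrocyte-lineage-like, astrocyte-like and immune-like nuclei. AP-1 letters went the other way, in 5.23% of members led by no class, 14.8% of astrocyte-led and 11.8% of immune-led members, but 4.99% of neuron-led ones. In 300-base RefSeq promoters (GRCm38.p6), CCGGAAG was in 15.3% of the 15208 promoters of genes with a member and 3.13% of the 16188 others, and TATAAAA in 2.43% and 8.38%. A match is a match of letters and does not show that a factor binds there.

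RNA had not been used by the rule. In Foxr2 p53LOF, 82.4% of genes with a member reached 1 UPM over all nuclei, against 15.5% of genes without one, and the medians were 15.7 and 0.0495 UPM. In Foxr2 alone the shares were 81.8% and 17.4%. The difference was there for protein-coding genes (91.9% and 18.7% in Foxr2 p53LOF) and for long noncoding RNA genes (38.8% and 13.6%). Genes with a member carried 93.4% of the UMIs on these chromosomes in Foxr2 p53LOF and 95.6% in Foxr2 alone. A gene without a member could still have RNA, as did the astrocyte water channel gene Aqp4 with 354 UPM in astrocyte-like nuclei of Foxr2 p53LOF.

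Across classes, RNA and promoter moved together where they differed strongly. In Foxr2 p53LOF, 10906 genes with a member had 10 UPM or more in some class. Summed over a gene's members, promoter fragments were led by 1 class for 1252 of them. For 1112 of these (88.8%) the RNA was at least 2-fold above every other class in that same class, on a scale of UPM plus 1. Over all 16344 genes with a member, 2321 had promoter fragments led by 1 class. Those under 10 UPM in every class are not in the 88.8%. RNA was 2-fold above every other class in 27.3% of the 10906 genes, and in 30.8% of all 11821 genes on chr1 to chr19 at that level. In Foxr2 alone, 1377 of 1820 genes (75.7%) had RNA and promoter in the same class, 32.4% of 11260 genes with a member had RNA led by a class, and of all 12422 genes 35.8% did. Promoter and RNA pointed to different classes in 18 genes of Foxr2 p53LOF and 55 of Foxr2 alone.

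The reverse did not hold to the same degree. Of the 2973 genes with a member whose RNA was 2-fold above every other class in Foxr2 p53LOF, 1112 (37.4%) had promoter fragments led by that class and 1843 by no class. The larger the RNA difference, the more often the promoter followed (box plot by RNA ratio). For genes with RNA less than 2-fold above the next class, the median log2 ratio of promoter fragments between that class and the highest other was -0.07, at 2 to 4-fold it was 0.37, at 4 to 16-fold 1.06 and at 16-fold or more 2.42. In Foxr2 alone these medians were -0.07, 0.35, 1.05 and 2.55. Above 2-fold, the median promoter ratio was thus below the lowest RNA ratio of each range. In all, 89.8% of the 333 genes in the top range had a promoter led by that class in Foxr2 p53LOF, against 1.11% of the 7931 genes in the lowest.

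**Figure D4:**
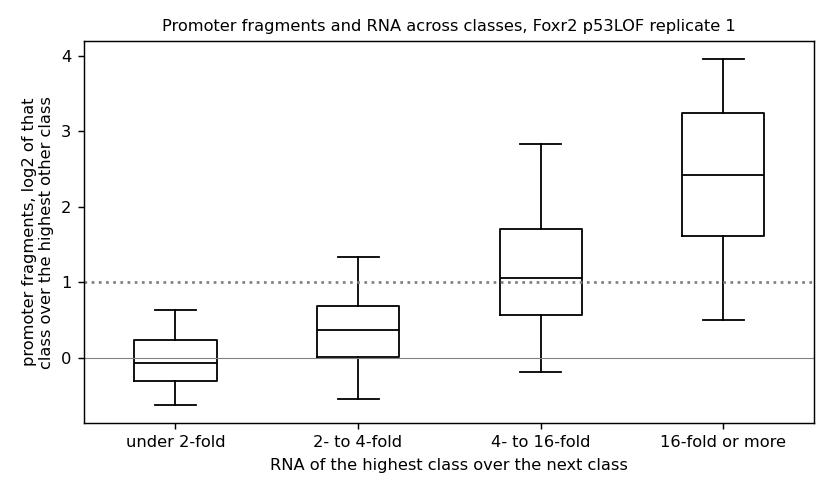
Promoter fragments in Foxr2 p53LOF replicate 1, as log2 of the class with most RNA over the highest other class (y axis, on FPM plus 1), for genes grouped by how far that class's RNA stood above the next (x axis, on UPM plus 1). Boxes show quartiles over 7931, 1546, 1092 and 333 genes with the median as a line, whiskers the 5th and 95th percentiles, and the dotted line a 2-fold promoter difference, which the median passes from 4-fold RNA differences on.

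As a description across genes, which are not independent replicates, Spearman's rho between RNA level and promoter level within 1 class of Foxr2 p53LOF was 0.38 in neuron-like, 0.45 in oligodendrocyte-lineage-like, 0.43 in astrocyte-like and 0.51 in immune-like nuclei over 10902 genes. For the ratio of the class to the mean of the others it was 0.71, 0.59, 0.59 and 0.77. All values of one class share a library and its depth, and RNA was counted over whole transcripts and not per length. In each class of both libraries, rho was larger for ratios than for levels.

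A few genes had class-restricted RNA over an even promoter. By rule, these were 17 of the 16344 genes with a member. In Foxr2 p53LOF they had RNA at least 16-fold above every other class, with nothing added, and promoter fragments within 1.5-fold. The rule set no minimum of RNA. Lpxn, a gene of the adhesion adapter leupaxin in blood cells, had 91.1, 96.3, 87.5 and 131 FPM in the 4 classes but RNA of 4.13, 6.50, 8.38 and 137 UPM. In Foxr2 alone its promoter had 88.9, 175, 168 and 163 FPM and its RNA was 9.82, 5.0, 7.95 and 241 UPM. So in both libraries the promoter was open in every class and the RNA level stood far higher in immune-like nuclei. Itgal, an integrin gene of leukocytes, had 4.13, 5.20, 5.24 and 4.0 FPM and RNA of 0.591, 3.83, 2.73 and 143 UPM, but its promoter level in immune-like nuclei rested on 22 fragments. For Kifc2, a kinesin gene, RNA was 68.2 UPM in neuron-like nuclei of Foxr2 p53LOF and at most 4.18 UPM elsewhere, but in Foxr2 alone it was 37.2, 25.9, 40.5 and 17.2 UPM. Neuron marker RNA was likewise found in all classes of Foxr2 alone, as for Snap25, a synaptic fusion gene, with 1157, 324, 602 and 279 UPM, against 587, 44.4, 82.0 and 26.5 UPM in Foxr2 p53LOF. The part of this in the Kifc2 levels was not tested. The other genes named by the rule, Tmem171, Ccdc153 and Snhg7os, had RNA under 1 UPM in every class of Foxr2 p53LOF, so their RNA ratios rest on few UMIs.

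Some members had no RNA counted for any linked gene. In Foxr2 p53LOF, 252 of the 16344 genes with a member were at 0 UMIs, against 4491 of the 14020 genes without one. For 112 of the 19746 members, all linked genes were at 0 UMIs in both libraries. Those with most fragments were at Trex1, a DNA exonuclease gene (34.2, 45.4, 52.0 and 81.8 FPM in Foxr2 p53LOF), Gm28616, Exosc6, an RNA exosome gene, and Hoxc10. Trex1, Exosc6 and Hoxc10 each overlap 1 other gene on the same strand in GENCODE (Atrip, Aars and Hoxc5), so their counts are uncertain. Gm28616 has no such overlap. Its member had 39.4, 48.7, 39.9 and 5.09 FPM in Foxr2 p53LOF and 38.4, 94.3, 86.2 and 2.45 FPM in Foxr2 alone, so it was low in immune-like nuclei of both.

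Between the libraries, members were compared within a class, with the fragments of all overlapping Foxr2 alone peaks summed. Genotype, library and the clusters that make up a class cannot be told apart here. A member was past 2-fold when its FPM differed by that much with 30 fragments or more in a library, which 19229, 18090, 16400 and 12531 members reached in the 4 classes. In oligodendrocyte-lineage-like nuclei, 3470 members (17.6%) were higher in Foxr2 p53LOF and 525 (2.66%) lower, against 21.6% and 4.51% of all 70304 peaks with an overlap in Foxr2 alone replicate 1. In astrocyte-like nuclei 2921 (14.8%) were higher and 856 (4.34%) lower, against 18.8% and 5.39%. In neuron-like nuclei 2988 (15.1%) were higher and 748 (3.79%) lower, against 19.1% and 8.15%. In immune-like nuclei 692 (3.50%) were higher and 477 (2.42%) lower, against 3.24% and 2.56%. In neuron-like and oligodendrocyte-lineage-like nuclei, members were past 2-fold less often than the background.

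The balance between higher and lower depended on depth and scaling. The minimum of 30 fragments stood for 4.03 FPM in astrocyte-like nuclei of Foxr2 p53LOF but 17.7 FPM in those of Foxr2 alone, and for 5.46 and 18.4 FPM in immune-like nuclei, so a weak member could pass there only through Foxr2 p53LOF. With the larger of these levels as the minimum for both libraries, a setting chosen after the data were seen, 925 members (4.68%) were higher and 701 (3.55%) lower in astrocyte-like nuclei, against 3.49% and 4.08% of all peaks. In immune-like nuclei 222 (1.12%) were higher and 429 (2.17%) lower, against 0.653% and 2.20%, so the balance turned. In neuron-like nuclei the counts were 2906 and 721 and in oligodendrocyte-lineage-like nuclei 3470 and 521, close to those above. The median log2 ratio between the libraries, with Foxr2 p53LOF on top, was 0.39 over members in neuron-like, 0.00 in oligodendrocyte-lineage-like, -0.06 in astrocyte-like and -0.13 in immune-like nuclei. Over all peaks with an overlap it was 0.44, 0.41, 0.13 and -0.03. With 30 fragments and scaling to the fragments in the members themselves, the counts of higher and lower became 1575 and 1198, 4187 and 265, 3529 and 573, and 898 and 295. For this scaling there is no share over all peaks to set beside them, so they show only how far the counts depend on the denominator.

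RNA of the linked genes differed in the direction of the promoter. In oligodendrocyte-lineage-like nuclei, genes at 10 UPM or more in a library had a median RNA log2 ratio of 1.30 beside the 1353 genes with a higher member, -0.92 beside the 323 with a lower one and 0.10 beside the 9052 with neither. In astrocyte-like nuclei these were 1.06, -1.48 and 0.02, in immune-like nuclei 1.16, -0.84 and -0.17, and in neuron-like nuclei 0.85, -0.37 and -0.09. A gene with a higher member had RNA at least 2-fold higher in 56.4%, 51.3%, 53.1% and 44.9% of cases, respectively, and a gene with neither in 18.8%, 20.2%, 12.1% and 8.35%. These genes rest on the minimum of 30 fragments. With 1 minimum level for both libraries, the median RNA log2 ratios were 1.6 beside 652 higher and -1.58 beside 492 lower genes in astrocyte-like nuclei, and 1.73 beside 162 and -0.85 beside 283 in immune-like nuclei.

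Most members with the most extreme library ratios lay only inside wide ranges, and Tmem52, Sh3rf1 and Slc10a6 were those near an end of one. In oligodendrocyte-lineage-like nuclei, members of Adcy7, an adenylate cyclase gene, and Nrg1, a growth factor gene, had 93 and 92 fragments in Foxr2 p53LOF and 0 in Foxr2 alone, at least 32.2-fold and 31.8-fold higher against a floor of 3 fragments over the class. With 3 taken as the count in Foxr2 alone, the exact 95% intervals of these folds start at 10.7 and 10.6. A member of Tmem52 had 22 fragments there in Foxr2 p53LOF and 262 in Foxr2 alone, 11.5-fold lower (7.42 to 18.6), and one inside Camta1 had 67 and 588, 8.46-fold lower (6.56 to 11.1). The Camta1 member at the gene start, shown above, had 144 and 179 FPM in the same nuclei, so the member at the start differed far less than the inner one.

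In astrocyte-like nuclei, members of Cacna1c, a calcium channel gene, and Osbpl10, a lipid-binding protein gene, had 194 and 123 fragments in Foxr2 p53LOF and 0 in Foxr2 alone, at least 14.7-fold and 9.34-fold higher, with intervals that start at 4.96 and 3.12. A pair of members of Rcan2, a calcineurin inhibitor gene, had 2 and 3 fragments in Foxr2 p53LOF and 42 each in Foxr2 alone, 92.2-fold (24.0 to 786) and 61.5-fold (19.6 to 310) lower. RNA of Rcan2 in this class was 34.6 UPM in Foxr2 p53LOF and 328 UPM in Foxr2 alone. In immune-like nuclei, members of Arid5b and Sh3rf1 had 106 and 87 fragments in Foxr2 p53LOF and 0 in Foxr2 alone, at least 10.5-fold and 8.61-fold higher, with intervals that start at 3.49 and 2.85. Those of Slc10a6, a transporter gene, and Nol4l were 26.1-fold (15.5 to 47.1) and 11.5-fold (7.26 to 18.7) lower. RNA of Slc10a6 was 0 UPM and 20.7 UPM in this class, the same direction as its promoter. RNA in the same class was also higher in Foxr2 p53LOF for Arid5b (1174 and 157 UPM), Osbpl10 (84.0 and 2.89 UPM), Sh3rf1 (35.0 and 1.72 UPM), Cacna1c (273 and 68.0 UPM) and Adcy7 (8.56 and 2.27 UPM). It was lower there for Tmem52 (0.137 and 6.13 UPM), Camta1 (168 and 294 UPM) and Nol4l (42.3 and 65.5 UPM), and for Nrg1 it was nearly even (54.1 and 46.3 UPM).

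Among the factors of telencephalic development, Dlx5, a factor of ventral forebrain neurons, had 4.51 FPM in neuron-like nuclei of Foxr2 p53LOF and 21.5 FPM in those of Foxr2 alone. Summed over 2 members, Pax6, a neural progenitor factor gene, had 67.9 and 67.3 FPM in astrocyte-like nuclei of the libraries, with RNA of 60.7 and 86.7 UPM. Of the 13 telencephalic factors 10 had a member, and in neuron-like nuclei 4 of them were at least 2-fold lower in Foxr2 p53LOF and 0 higher, against 1.40% lower and 9.24% higher, on FPM plus 1, among all 16344 genes with a member. In oligodendrocyte-lineage-like nuclei 1 was lower and 4 higher, in astrocyte-like nuclei 3 and 2, and in immune-like nuclei 0 and 2. The shares of all genes were 1.20% and 13.2%, 4.22% and 10.9%, and 2.63% and 7.13%. The promoters of the list thus had no direction common to the classes. RNA of the 10 genes was at least 2-fold lower for 6, 5, 7 and 4 in the 4 classes, neuron-like first, and higher for 0, 1, 0 and 0. Among all genes with a member RNA was lower in 13.2%, 13.5%, 21.5% and 18.1% and higher in 10.3%, 18.6%, 18.8% and 13.6%. Median RNA of the list was low, at most 0.309 UPM in any class of Foxr2 p53LOF. The neuron-like nuclei of Foxr2 p53LOF were mostly in 1 cluster, of 1845 nuclei and led by Cntnap5b, that held 32 nuclei of Foxr2 alone, and the part of this in the counts was not tested.

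Most cell cycle genes had promoters within 2-fold between the libraries, as did most genes, while their RNA was higher in Foxr2 p53LOF more often than that of all genes. In astrocyte-like nuclei, the promoters of 22 of the 25 genes were within 2-fold between the libraries on a scale of FPM plus 1, with a median log2 ratio of -0.10, while RNA of 22 was at least 2-fold higher in Foxr2 p53LOF, with a median log2 ratio of 2.30. Over all genes with a member, 84.9% of promoters were within 2-fold and 18.8% had RNA 2-fold higher in this class. In oligodendrocyte-lineage-like nuclei 23 promoters were within 2-fold and 21 RNAs were higher (85.6% and 18.6% of all genes), and in immune-like nuclei 24 and 20 (90.2% and 13.6%). In neuron-like nuclei all 25 promoters were within 2-fold and 8 RNAs were higher and 2 lower (89.4%, 10.3% and 13.2%).

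Top2a, the topoisomerase gene of dividing cells, had 39.9 FPM in astrocyte-like nuclei of Foxr2 p53LOF and 53.1 FPM in those of Foxr2 alone, whereas its RNA was 137 and 5.78 UPM. Mki67, the gene of the Ki-67 protein, had 29.5 and 25 FPM in oligodendrocyte-lineage-like nuclei and RNA of 59.0 and 2.27 UPM. For Cenpf, a kinetochore gene, the promoter in these nuclei was 36.8 and 41.5 FPM and RNA 42.2 and 1.14 UPM. In immune-like nuclei of Foxr2 alone, Top2a, Mki67 and Cenpf were at 0 UMIs. The largest promoter ratio of the list in oligodendrocyte-lineage-like nuclei was that of Plk1, a mitotic kinase gene, with 11.5 and 3.48 FPM. RNA of Pcna, a replication clamp gene, had the lowest ratio of the list in oligodendrocyte-lineage-like nuclei, at 26.4 UPM in Foxr2 p53LOF and 49.0 UPM in Foxr2 alone.

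**Figure D5:**
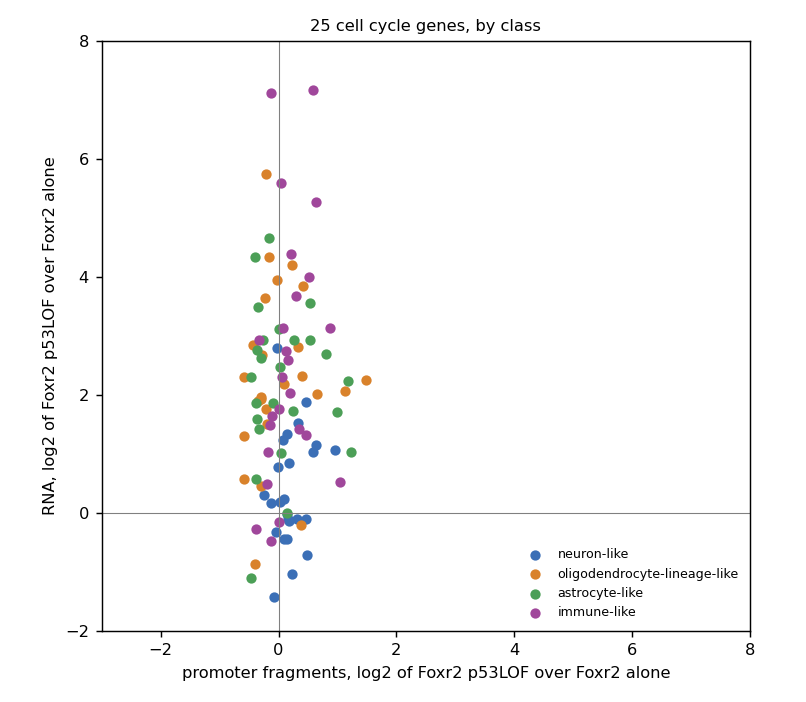
Log2 ratio between the libraries (Foxr2 p53LOF replicate 1 divided by Foxr2 alone replicate 1) in promoter fragments (x axis, on FPM plus 1) and in RNA (y axis, on UPM plus 1) for the 25 cell cycle genes, 1 dot per gene and class, on axes of equal scale with 1 library per genotype. Dots reach 1.48 along x, with 6 at 2-fold or more (Plk1 in 3 classes, Tyms in 2 and Ccne2 in 1), and 7.18 along y, and the median along y is 0.18 in neuron-like nuclei and above 2 in the other classes.

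The promoters of all 75 ribosomal protein genes with a member were within 2-fold between the libraries in each class, against 89.4%, 85.6%, 84.9% and 90.2% of all genes with a member in neuron-like, oligodendrocyte-lineage-like, astrocyte-like and immune-like nuclei. Their median log2 ratios ran from -0.35 to 0.21. Their RNA was at least 2-fold lower in Foxr2 p53LOF for 30 in neuron-like, 8 in oligodendrocyte-lineage-like, 63 in astrocyte-like and 38 in immune-like nuclei and 2-fold higher for 0. Among all genes with a member RNA was 2-fold lower in 13.2%, 13.5%, 21.5% and 18.1%, so the ribosomal protein genes were below that share in oligodendrocyte-lineage-like nuclei and above it in the other classes. The promoters of the 31 proteasome genes were also within 2-fold in each class, with RNA of 10, 5, 19 and 7 lower and 0 higher, which was close to the share of all genes in oligodendrocyte-lineage-like and immune-like nuclei. Median UMIs per nucleus were higher in Foxr2 p53LOF in each class (for example, 7550 against 2576 in astrocyte-like and 9967 against 7300 in neuron-like nuclei), and RNA of neuron markers was lower with it. Of the 7 neuron markers with a member, RNA was at least 2-fold lower in Foxr2 p53LOF for 1 in neuron-like, 3 in oligodendrocyte-lineage-like, 6 in astrocyte-like and 6 in immune-like nuclei and higher for 0, with median log2 ratios of -0.61, -0.94, -1.79 and -1.68. Their promoters were 2-fold higher for 0, 5, 3 and 1 and lower for 0, 0, 1 and 1. Among all genes these shares were 9.24%, 13.2%, 10.9% and 7.13% higher and 1.40%, 1.20%, 4.22% and 2.63% lower. In oligodendrocyte-lineage-like nuclei the median promoter log2 ratio of the markers was 1.70, opposite to their RNA. The part of UMI number or of neuron marker RNA in the RNA ratios was not tested.

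Of the 20 p53 targets with a member, genes that p53 is known to activate, 18 had promoters within 2-fold between the libraries in neuron-like, astrocyte-like and immune-like nuclei each and 16 in oligodendrocyte-lineage-like nuclei, close to the shares of all genes given above. Cdkn1a, the gene of the p21 cell cycle inhibitor, had 67.9 FPM in oligodendrocyte-lineage-like nuclei of Foxr2 p53LOF and 144 FPM in those of Foxr2 alone, and its RNA was 25.8 and 485 UPM. Ccng1 had 34.9 and 66.7 FPM in astrocyte-like nuclei and RNA of 10.1 and 76.6 UPM. Mdm2, which encodes the ubiquitin ligase of p53, had 47.4 and 69.0 FPM there and RNA of 124 and 62.2 UPM, in the opposite direction. Fas, a death receptor gene, was led by astrocyte-like nuclei in Foxr2 p53LOF, at 37.0 FPM, but not in Foxr2 alone, where 13.0 FPM rested on 22 fragments and immune-like nuclei had 7.35 FPM. In astrocyte-like nuclei of the libraries it had RNA of 59.6 and 6.51 UPM. RNA of the targets was at least 2-fold higher in Foxr2 p53LOF for 1, 3, 1 and 5 and lower for 3, 6, 7 and 4 in neuron-like, oligodendrocyte-lineage-like, astrocyte-like and immune-like nuclei. Among all genes with a member it was higher in 10.3%, 18.6%, 18.8% and 13.6% and lower in 13.2%, 13.5%, 21.5% and 18.1%.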

How the data were processed

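The authors made the deposited counts with Cell Ranger ARC 2.0.0 at default parameters, aligning to mm10 with added vector sequences and calling nuclei and peaks in each library, without normalization. In the deposited tables, gene values are counts of UMIs and peak values are counts of cut ends. Of the nonzero peak values 80.7% and 82.9% were even, so fragments were taken as counts divided by 2 and rounded up. Over all barcodes there were 96929539 UMIs and 102529894 peak counts in Foxr2 p53LOF and 59719847 and 118436178 in Foxr2 alone. Start and end positions were deposited with the first base at 0 and are printed with it at 1.

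Nuclei needed 400 genes, 400 fragments and a share of mitochondrial UMIs up to 5%, and had to stay within the study's upper limits. Scrublet (expected rate 8%, scanpy 1.11.5) marked 305 and 513 nuclei (3.48% and 5.81%) as doublets, which were removed. Both libraries were clustered jointly on RNA without the listed genes (2000 variable genes, 30 components, 20 neighbours, leidenalg 0.10.2, resolution 0.5, seed 100). A cluster took the name of a cell type when 3 of its markers were 2-fold over the 25th percentile among clusters and their median led other types by 0.5 on the log2 scale, and stayed unnamed when its UMI number was far from its library or type and none of its 10 leading genes was an own marker. These limits were chosen with the data in view and left 713 Foxr2 p53LOF nuclei (8.43%) and 21 Foxr2 alone nuclei unnamed.

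Fragments and UMIs were summed per library and class and scaled to 1000000 (FPM over peaks on chr1 to chr19, UPM over genes). A pseudocount of 1 was added for RNA ratios and for gene ratios between libraries. Intervals are exact at 95% (scipy 1.17.1), cover counting error only and use a floor of 3 counts over the class. A fold over other classes is against the one with the highest measured level, and only that class had the floor. Sequences were read from GRCm38 and gene types from GENCODE M21 (32158 of 32298 gene IDs matched). The members and lists were chosen with earlier results of these data known. By rule were named the 8 members with the highest lowest-class level, the 5 most strongly led per class, 6 genes with class RNA over an even promoter, 4 members at 0 UMIs, the 2 highest and 2 lowest library ratios in each class but the neuron-like, and genes of the lists. Predicted genes (Gm and a number, or ending in Rik) were skipped except at 0 UMIs. Which list genes are shown with values was chosen after their values were seen. Values of a listed gene that is withheld are not reported here.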

Additional observations from a re-analysis of the deposited data

How the results depend on the processing

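The number of members stayed within 1.5 times of 19746 under 5 of 6 other rules (22020 without Foxr2 alone replicate 1 and 22398 without replicate 2) and was 12215 when only start ranges of at most 1 kb counted. Their share of fragments, 51.7% in Foxr2 p53LOF and 47.2% in Foxr2 alone, was 51.7% and 47.4% with doublets kept, 51.6% and 44.4% with at least 1000 genes and 1000 fragments per nucleus, 52.2% and 47.7% on deposited counts, and 39.5% and 36.2% with ranges of at most 1 kb. The number of members led by 1 class, 4373, was 1707 at 4-fold and stayed within 1.5 times under the 4 other planned settings. Of the settings chosen after seeing the data, it was 2576 in members near an end of a start range, 4144 scaled to the fragments in members and 4272 with each class thinned to the class with fewest fragments. Among genes at 10 UPM or more in some class, those with promoter led by a class had RNA led by the same class in 88.8% of cases. The share was 91.9% at 50 UPM and 86.6% with a pseudocount of 5. Members past 2-fold between libraries in any class numbered 8341, 14025 were past 1.5-fold, and 7338 with 1 minimum level for both libraries, a setting under which the balance of higher and lower turned in immune-like nuclei. At 10 UPM, RNA was detected for 58.2% of genes with a member and 3.25% without, and with ranges of at most 1 kb 80.5% of genes with a member were detected at 1 UPM. No paired analysis was possible because the replicate numbers join no samples across genotypes and no result came from a test. With 1 library per genotype, the spread between animals is unknown, and in immune-like nuclei of Foxr2 alone 1 UMI was worth 1.72 UPM, so low RNA values there rest on few molecules.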
